A study of Mus musculus with 9 samples.

Results

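The comparison set the livers of all offspring that began as embryos fertilized in vitro against the livers of naturally conceived offspring. The IVF-conceived arm held 6 mice, 3 of the IVF-chow group and 3 of the FET-chow group, and the other arm held the 3 NC-chow mice, so that all 9 mice of the series were used. Both arms were chosen by the group named in the sample labels and not by any measured value. Liver RNA of male chow-fed mice aged 20 weeks was sequenced after a fast of 4 h. The labels give all mice as B6D2F2. The embryos of both IVF groups came from B6D2F1/J females and B6D2F1/J males, and the parents of the NC-chow mice are not given in the sources used here. In such a cross C57BL/6J and DBA/2J alleles segregate, so that littermates differ in genotype. The NC-chow mice came from natural conception. The IVF-chow embryos came from eggs of donors super-ovulated with gonadotrophins, were fertilized in vitro and were transferred fresh at the 2-cell stage into pseudopregnant ICR females. The FET-chow embryos were made the same way and were in addition frozen slowly, stored and thawed before transfer. The pooled arm therefore shares super-ovulated egg donors, fertilization in vitro, culture and transfer to a foster mother of another stock, and differs within itself by the freezing step. Super-ovulation, conception in vitro, the transfer and the foster mother cannot be told apart in this design. The labels number the mice 1, 5 and 6 in NC-chow and 2, 3 and 4 in both other groups, and nothing in them says which mice were littermates.

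Fertilization in vitro and early culture fall in the period when the embryo resets its DNA methylation and starts its own transcription. Liver is the organ that makes and releases glucose between meals, synthesizes cholesterol, fatty acids and bile acids, and clears drugs and oxidants, and many of its metabolic genes follow a daily rhythm. In that rhythm the activators CLOCK and BMAL1 bind a short DNA element, the E-box, in the genes of their own repressors and of output factors such as DBP, which in turn binds another element, the D-box. NRF2, encoded by Nfe2l2, works with small MAF proteins such as MAFG at antioxidant response elements.

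The deposited values were FPKM (fragment numbers divided by transcript length and by library size) for 55335 genes. Those with an average FPKM of 1 or more, 6755 in number, were compared on log2(FPKM + 1). The same comparison was run after median-ratio scaling, in which each library was divided by its median ratio to the geometric mean of 4678 genes present in every mouse. A gene was called separated when all 6 IVF-conceived mice lay on one side of all 3 NC-chow mice. At the filter, the lincRNA Gm47789 had a mean FPKM of 1.01 and was tested, and Rnf185 had a mean of 0.999 and was not.

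Stretches upstream of a start site are printed for some separated genes of the clock and of the NRF2 system. Each printed stretch holds a match to the motif marked, and those of Dbp and Nfe2l2 are not printed. The stretches are taken from RefSeq on build GRCm38.p6 and end at the last base before the start site. In Ciart (chr3:95882229-95882478, minus strand), Mafg (chr11:120633548-120633797, minus strand) and Cipc (chr12:86947093-86947342, plus strand) the capitals mark the E-box CACGTG. In Per3 (chr4:151044666-151044915, minus strand) they mark the D-box TTATGNAA, where N is any base.
Ciart: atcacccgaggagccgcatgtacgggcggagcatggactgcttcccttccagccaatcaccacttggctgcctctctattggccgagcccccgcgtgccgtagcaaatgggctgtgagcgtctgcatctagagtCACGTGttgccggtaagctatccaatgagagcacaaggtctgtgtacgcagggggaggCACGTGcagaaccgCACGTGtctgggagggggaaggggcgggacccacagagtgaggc
Mafg: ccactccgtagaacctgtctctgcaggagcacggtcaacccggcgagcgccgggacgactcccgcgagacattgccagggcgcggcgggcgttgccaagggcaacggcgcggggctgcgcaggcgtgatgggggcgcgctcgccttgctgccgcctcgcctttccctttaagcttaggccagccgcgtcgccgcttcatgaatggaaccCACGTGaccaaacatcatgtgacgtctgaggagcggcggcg
Cipc: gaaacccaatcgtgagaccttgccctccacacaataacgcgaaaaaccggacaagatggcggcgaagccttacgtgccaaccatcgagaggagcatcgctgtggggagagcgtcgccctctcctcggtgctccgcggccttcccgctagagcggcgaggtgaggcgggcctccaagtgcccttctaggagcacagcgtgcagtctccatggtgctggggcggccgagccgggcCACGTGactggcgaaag
Per3: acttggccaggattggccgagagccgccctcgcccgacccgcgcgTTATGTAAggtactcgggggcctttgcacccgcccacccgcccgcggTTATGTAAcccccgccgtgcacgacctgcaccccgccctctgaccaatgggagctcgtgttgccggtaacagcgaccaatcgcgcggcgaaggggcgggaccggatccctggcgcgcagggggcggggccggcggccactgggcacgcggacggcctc

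Library values were compared between the arms first, and none differed past an adjusted p of 0.05, which does not show that the arms were alike. The depth, estimated from the spacing of low FPKM values, was 6590000, 11930000 and 13370000 fragments in NC-chow mice 1, 5 and 6 and between 2020000 and 8440000 in the IVF-conceived mice (two-sided exact permutation p = 0.0476, adjusted p = 0.214 over 9 library measures). The 3 non-coding entries of highest mean FPKM, AY036118, Gm23935 and CT010467.1, the last annotated as ribosomal RNA, took 26.5%, 3.49% and 5.03% of the summed FPKM in the NC-chow mice. Their share was 18.1% to 61.9% in the IVF-conceived mice (exact permutation p = 0.0714, adjusted p = 0.214). Genes of the mitochondrial genome took 40.2% to 55.3% in NC-chow and 27.6% to 41.5% in IVF-conceived mice (exact permutation p = 0.0714, adjusted p = 0.214). Of the genes tested, 367, 167 and 154 were listed at 0 in NC-chow mice 1, 5 and 6. In mice 2, 3 and 4 the number was 258, 233 and 168 in IVF-chow and 1371, 342 and 980 in FET-chow. Between the arms it had an exact permutation p of 0.333 (adjusted p = 0.599). The sheet numbers in the labels were above 100 for NC-chow mice 5 and 6, 67 for NC-chow mouse 1 and 71 to 76 for the IVF-conceived mice, so a sheet number above 100 occurred in NC-chow alone. The skeletal muscle genes Ckm (FPKM 16.4) and Acta1 (FPKM 27.2) were highest in NC-chow mouse 1 and at most 4.13 and 3.7 elsewhere. Of 21 markers of other organs, 3 (Cela1, Ckm and Acta1) passed the filter. Their summed FPKM was 2.18 to 46.3 in NC-chow and 0.488 to 14.3 in IVF-conceived mice. Markers under the filter were not in the sum, such as Myh1 (3.76 in NC-chow mouse 1) and Ins1 (4.64 in IVF-chow mouse 3). Albumin (Alb), the main plasma protein of hepatocytes, was at an FPKM of 6270 to 10700 in NC-chow and 1320 to 20600 in IVF-conceived mice, so all 9 libraries carried the defining liver transcript. Xist was at an FPKM of at most 0.211 in every mouse, as the stated male sex requires. The part of any of these measures in the gene differences was not tested, except where a value against NC-chow mouse 1 or a rescaled value is given.

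**Figure D1:**
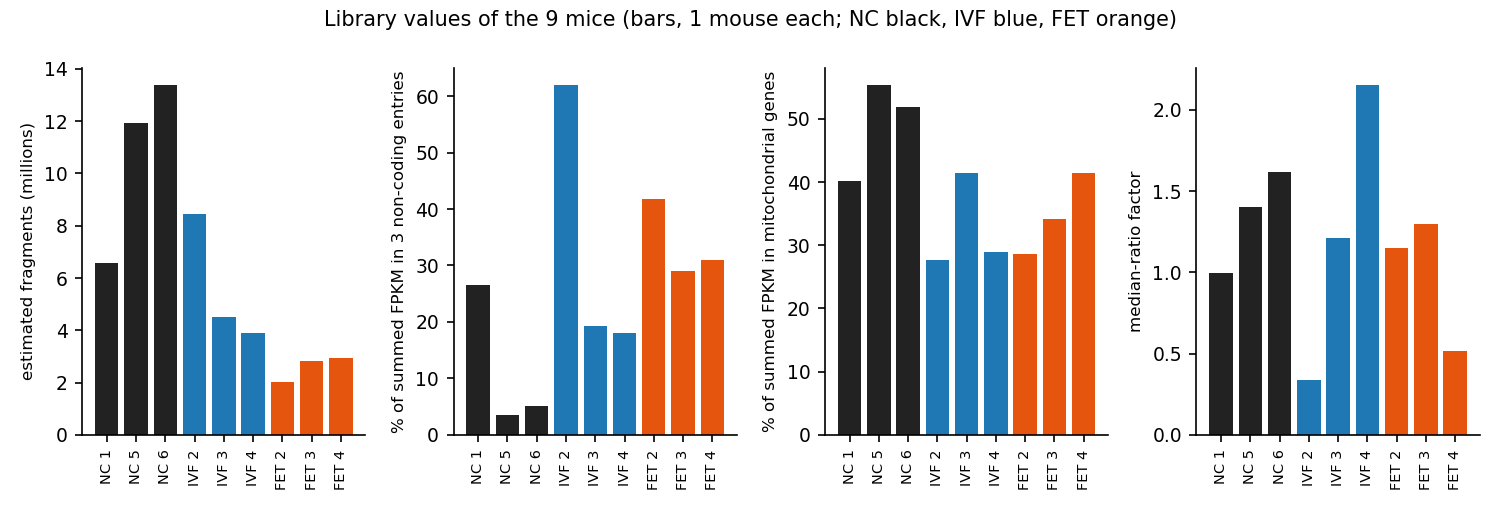
Bars give 1 mouse each, with NC-chow in black, IVF-chow in blue and FET-chow in orange, for estimated fragments, percent of summed FPKM in 3 non-coding entries, percent of summed FPKM in mitochondrial genes and the median-ratio factor. NC-chow mice 5 and 6 had the most fragments and the smallest non-coding share (3.49% and 5.03%), and NC-chow mouse 1 lay within the range of the IVF-conceived mice on all 4 measures.

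Across the whole table the IVF-conceived livers lay lower in the deposited FPKM. The median difference over the 6755 genes was -0.36 on the log2(FPKM + 1) scale, and 74.4% of the genes had a negative difference. After median-ratio scaling the median was -0.06 and 54.6% were negative. In limma, 7 genes were lower in the IVF-conceived mice at an adjusted p under 0.05 (0.104% of those tested) and none was higher (0.0%), with 491 lower and 90 higher at an unadjusted p under 0.05. Under scaling, no gene passed in either direction (0.0%), the smallest adjusted p in limma was 0.159, and 403 genes were lower and 293 higher at an unadjusted p under 0.05. Differences are therefore given below on both scales for the genes described most fully.

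All 6 IVF-conceived mice lay below all 3 NC-chow mice in 185 genes as deposited (2.74%) and in 258 after scaling (3.82%). They lay above in 14 (0.207%) and 149 (2.21%). On both scales at once, 79 genes were separated below (1.17%) and 13 above (0.192%). Of the 84 arrangements of 6 mice against 3, 1 puts all 6 below and 1 puts all 6 above. On a single scale, a gene without any difference between the arms is therefore separated below in 1 of 84 arrangements. Whether the counts exceed that share was not tested, and separation alone is given as a description. Of the 79, 74 were protein-coding (93.7%, against 84.9% of the genes tested). The median of their mean FPKM over the 9 mice was 2.24, against 2.8 for all genes tested, and 11 reached a mean of 10. In 37 of them the IVF-conceived mean was under an FPKM of 1, and 39 (49.4%) were listed at 0 in at least 1 IVF-conceived mouse, against 30.1% of all genes tested. The gaps were narrow: for 77 genes with a value above 0 in both arms, the lowest NC-chow FPKM was a median of 1.2 times the highest IVF-conceived FPKM, and it was at least 2 times in 8. NC-chow mouse 1 was the lowest NC-chow mouse in 63 of the 79, and IVF-chow mouse 4 the highest IVF-conceived mouse in 41.

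**Figure D2:**
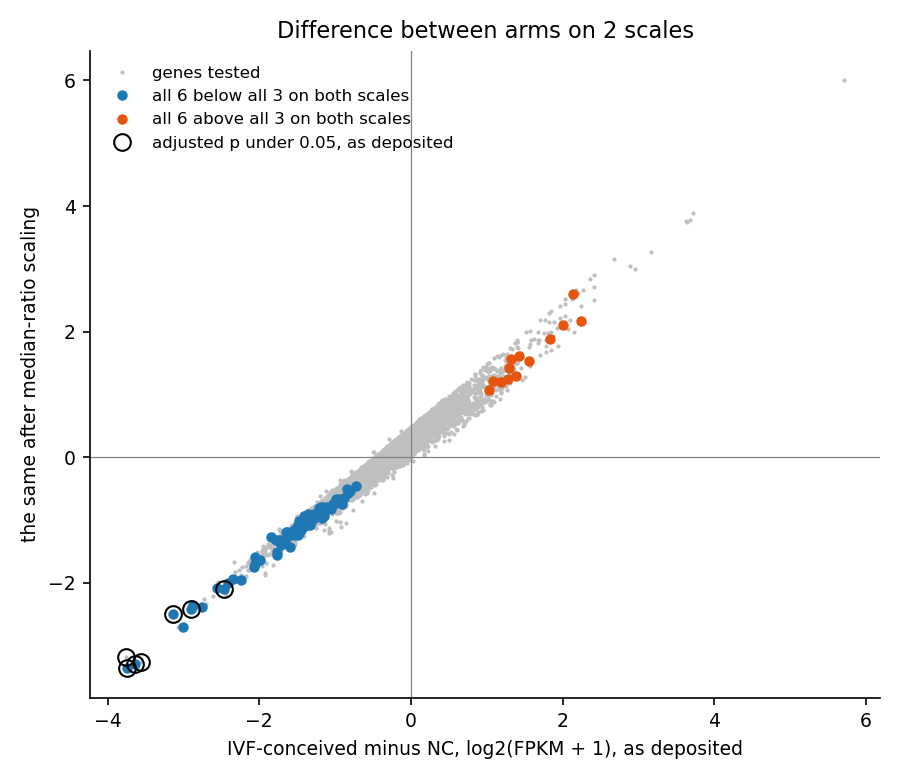
Each point is 1 of 6755 genes, with the difference IVF-conceived minus NC in mean log2(FPKM + 1) as deposited on the x axis and after median-ratio scaling on the y axis. The 79 genes separated below (blue) and the 13 separated above (orange) on both scales sit away from 0, and the 7 genes with an adjusted p under 0.05 as deposited (circles) have differences of -2.47 or lower on the x axis.

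The protein-coding genes with the largest difference on both scales are described by role, beginning with the genes of the oxidant response. Mafg, a small MAF partner of NRF2, lies on chromosome 11 from 120625117 to 120633600 (GRCm38, GENCODE vM21). Its FPKM was 6.27, 13.7 and 15.3 in NC-chow mice 1, 5 and 6. In the IVF-conceived mice it was 1.47, 0.0 and 0.149 (IVF-chow 2, 3 and 4) and 0.0, 0.0 and 1.32 (FET-chow 2, 3 and 4). The lowest NC-chow mouse was thus 4.27 times the highest IVF-conceived mouse. The mean log2(FPKM + 1) of Mafg differed by -3.14 (SE 0.51, adjusted p = 0.00528 in limma) as deposited and by -2.5 (SE 0.57, adjusted p = 0.261) after scaling. Mafg passed in 9 of 17 alternatives, 7 of which each left out 1 mouse. It did not pass with quantile normalization (adjusted p = 0.229 in limma). A sheet number term sets NC-chow mice 5 and 6 apart, which leaves NC-chow mouse 1 as the only control. Against that mouse, whose sheet number was nearest, the difference was -2.41.

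Nfe2l2, which encodes NRF2 itself, had an FPKM of 13.5, 35.1 and 37.7 in NC-chow. Its values ran from 0.364 to 10.8 in the IVF-conceived mice, with a median of 3.19, and no IVF-conceived mouse reached the lowest NC-chow mouse. The difference was -2.75 (SE 0.67, adjusted p = 0.117 in limma) as deposited and -2.39 (SE 0.43, adjusted p = 0.171) after scaling, so it did not pass on either scale. Gstm4, a glutathione transferase, was at 5.13, 7.55 and 10.2 in NC-chow and from 0.0 to 2.54 in IVF-conceived mice, a difference of -2.05 (adjusted p = 0.145 in limma) and of -1.7 after scaling (adjusted p = 0.171). The antioxidant defence list held 28 tested genes, of which 2 (7.14%), Mafg and Nfe2l2, were separated below on both scales, beside 1.17% of all genes. Its median difference was -0.56 as deposited and -0.16 scaled, and after scaling 3 of its members were separated in the opposite direction, above NC-chow, as were 2.21% of all genes.

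Dbp, the output factor of the clock that binds D-boxes, lies on chromosome 7 from 45705088 to 45710203. The NC-chow livers had an FPKM of 12.9, 20.5 and 21.5. IVF-chow mice 2, 3 and 4 had 1.28, 0.552 and 3.26, and FET-chow mice 2, 3 and 4 had 1.82, 0.611 and 2.89. The arms were apart by a ratio of 3.96 between their nearest mice, and both IVF groups overlapped each other. Dbp differed by -2.9 (SE 0.56, adjusted p = 0.0211 in limma) as deposited and -2.41 (SE 0.47, adjusted p = 0.171) after scaling, and by -2.46 against NC-chow mouse 1 alone. The call was held in 4 of 17 alternatives, 2 of which each left out 1 mouse, with differences between -3.57 and -2.41 over all 17.

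Per3, a period protein of the clock's repressor arm, had an FPKM of 2.79, 4.28 and 4.16 in NC-chow and from 0.375 to 0.869 in the IVF-conceived mice, with a median of 0.73. The spread among the 6 was small (0.691 ± 0.192, SD, n = 6, against 3.74 ± 0.828, SD, n = 3), and the nearest mice of the arms differed 3.21 times. Ciart, which represses CLOCK and BMAL1, was at 2.44, 3.34 and 4.7 in NC-chow, at 0.153, 0.918 and 1.14 in IVF-chow, and was listed at 0 in all 3 FET-chow mice. Cipc, another protein that binds CLOCK, had 4.47, 8.05 and 5.04 in NC-chow and 0.139 to 4.28 in IVF-conceived mice. Differences as deposited were -1.48 for Per3 (adjusted p = 0.277 in limma), -1.76 for Ciart (adjusted p = 0.227) and -1.47 for Cipc (adjusted p = 0.363), and none of the 3 passed after scaling either (adjusted p = 0.357, 0.177 and 0.357). Nr1d1, the repressor REV-ERBα, was separated only as deposited, at 6.62, 6.46 and 8.31 in NC-chow and from 0.0 to 4.31 in the IVF-conceived mice.

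Of the 19 clock genes tested, 17 had a negative difference as deposited and 14 after scaling. The median was -0.71 and -0.35, against -0.36 and -0.06 over all genes, and 3 members (15.8%) were separated below on both scales, beside 1.17% of all genes. Nr1d2, Per2 and Noct had lower means in the IVF-conceived mice but overlapped NC-chow mouse 1. NC-chow values were 3.89, 9.59 and 11 for Nr1d2, 4.42, 16.9 and 11.4 for Per2 and 3.68, 10.9 and 10.5 for Noct. IVF-conceived values ran from 1.12 to 4.22 for Nr1d2, 0.628 to 5.69 for Per2 and 0.432 to 5.27 for Noct. Tef and Hlf, the relatives of Dbp, did not share its gap. Tef had a difference of -0.37 and Hlf of -0.09, with scaled values of -0.11 and 0.17. Cry1 had a difference of 0.28 as deposited and 0.36 scaled. Arntl, which encodes BMAL1, was under the filter, at 0.0, 0.141 and 0.195 in NC-chow and at 0.747 and 0.812 in IVF-chow mice 3 and 4 and at most 0.103 in the other IVF-conceived mice. Clock gene transcripts in liver vary over the day, and the hour of tissue collection of each mouse is not given in the sources used here.

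**Figure D3:**
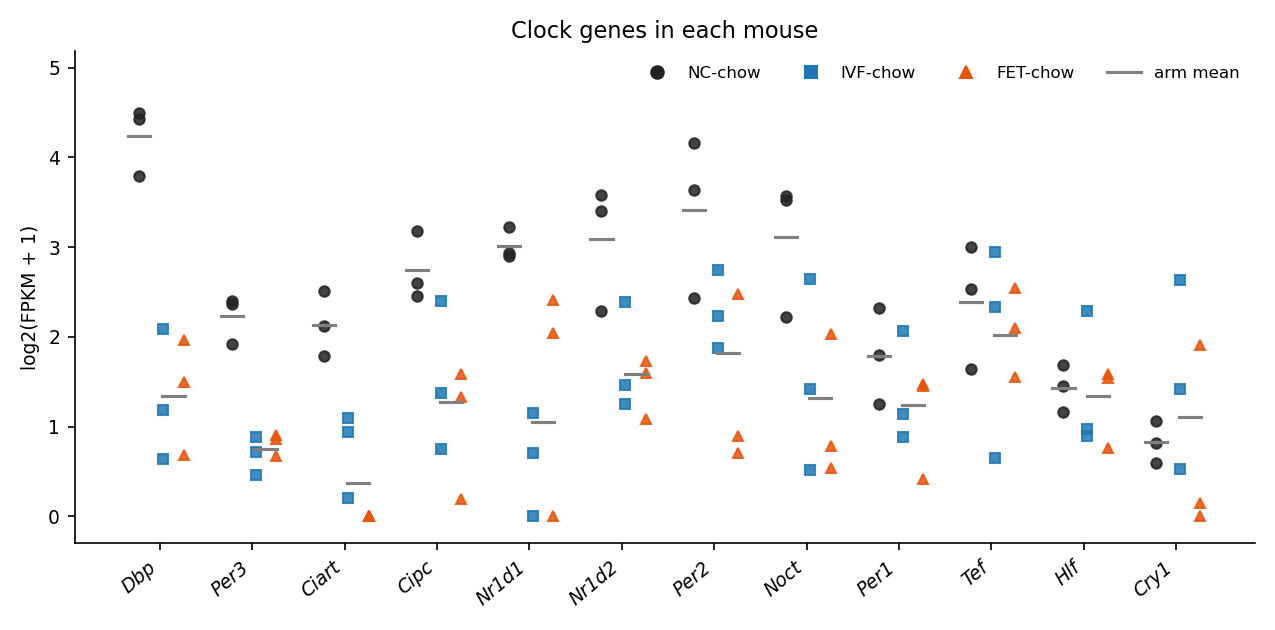
Points are single mice in log2(FPKM + 1) as deposited (circles NC-chow, squares IVF-chow, triangles FET-chow) and grey lines are the means of the 3 NC-chow and the 6 IVF-conceived mice. Dbp, Per3, Ciart, Cipc and Nr1d1 show no overlap between the arms, while Tef, Hlf and Cry1 overlap.

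The printed stretches bear on these genes only as a description. Of the 3 E-boxes of Ciart, the nearest 2 stood 58 and 44 bases before its start site, and single E-boxes stood 41 bases before that of Mafg and 17 before 1 of 2 start sites of Cipc, the window of the other holding none, with D-boxes 205 and 158 bases before that of Per3, counted from the first base of each match. A core of the antioxidant response element stood 222 bases before the start site of Mafg and is not in capitals. Another stood 240 bases before that of Nfe2l2. Windows of 300 bases, from 250 before to 50 after a start site, were found for 59 of the 79 genes separated below, and they held 93 windows since a gene can have several. Of these, 10 windows (10.8%) held CACGTG, against 10.1% of the windows of all tested genes and 7.15% of all windows. The D-box, searched on both strands like the others, was in 4 of 93 windows (4.3%, against 2.55% of the tested genes' windows). The core TGACNNNGC of the antioxidant response element was in 5 (5.38%, against 14.5%). The E-box share was close to that of the tested genes. The window of Dbp held no CACGTG, which says only that these letters are not in that window. The cyclic AMP response element TGACGTCA (2 windows, 2.15%, against 2.9%), the C/EBP palindrome TTGCGCAA (0 windows, against 0.287%) and the TATA box TATAAA (7 windows, 7.53%, against 8.61%) were searched too, and in none of the 93 windows did matches of different motifs overlap.

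Among the genes of lipid, sterol and bile acid metabolism, Cyp4a10, a fatty acid omega-hydroxylase and a target of PPARα, had the largest difference. Its FPKM was 41.4, 50.2 and 82.7 in NC-chow, 3.11, 18.4 and 27.2 in IVF-chow, and 5.25, 7.72 and 0.0 in FET-chow. The difference was -3.01 (SE 0.84, adjusted p = 0.235 in limma) and -2.7 scaled (SE 0.73, adjusted p = 0.357), and -2.59 against NC-chow mouse 1 alone. Its neighbour Cyp4a14 was separated as deposited, at 3.89, 1.82 and 9.37 in NC-chow and at most 0.713 in IVF-conceived mice. The list for fatty acid oxidation and ketogenesis, with 32 tested members, had a median of -0.64 as deposited and -0.23 scaled.

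Dhcr7, the last enzyme of cholesterol synthesis, had an FPKM of 4.88, 8.61 and 9.04 in NC-chow and 0.0 to 2.98 in IVF-conceived mice (median 0.485). It differed by -2.35 (SE 0.5, adjusted p = 0.0542 in limma) and by -1.94 scaled (adjusted p = 0.261). Dhcr7 passed in 4 of 17 alternatives, 2 of which each left out 1 mouse. All 20 tested genes of cholesterol synthesis had a negative difference as deposited and 18 after scaling, with medians of -0.94 and -0.6. Nsdhl, another enzyme of that pathway, was at 4.4, 9.61 and 12.6 in NC-chow and 0.0 to 6.74 in IVF-conceived mice and was separated after scaling only. Of the 23 lipid synthesis genes tested, all had a negative difference as deposited and 21 did so after scaling, and their medians, -1.2 and -0.83, were the lowest of the lists with at least 10 members tested. None of the 23 was separated on both scales, beside 1.17% of all genes, so this count is near the background. The elongases Elovl6 (NC-chow 3.97, 69.1 and 41.1) and Elovl5 (NC-chow 22.3, 39.9 and 84.6) had IVF-conceived medians of 3.4 and 8.64, and NC-chow mouse 1 lay inside the IVF-conceived range for both.

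In bile acid metabolism, Hsd3b7, an enzyme of the early steps of bile acid synthesis, had an FPKM of 36.5, 40.3 and 73.2 in NC-chow and 6.09, 0.0, 21.1, 1.31, 32.4 and 6.17 in the IVF-conceived mice. The whole of Hsd3b7 lies inside Gm49388, an annotated protein-coding gene on the same strand, which was listed at 12.5 and 18.0 in IVF-chow mice 3 and 4 and at 0.0 in NC-chow mice 5 and 6. With both entries added, IVF-chow mouse 4 had 39.1 and NC-chow mouse 1 had 38.5, so the arms overlapped. Abcb11, the bile salt export pump, had 36.2, 49.5 and 58.2 in NC-chow and 0.823 to 31.4 in IVF-conceived mice and was separated on both scales (differences -1.85 and -1.27, adjusted p = 0.544 and 0.605 in limma). Cyp27a1, which oxidizes the sterol side chain, was separated after scaling only. The bile acid list had 2 of 21 tested members separated below on both scales (9.52%, beside 1.17% of all genes), one of them Hsd3b7, with medians of -0.91 and -0.48.

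In amino acid metabolism, 1 of 40 tested members of the list (2.5%, beside 1.17% of all genes) was separated on both scales. Tat, the tyrosine aminotransferase that glucocorticoids induce, was at 97.0, 243.0 and 168.0 in NC-chow and 14.6 to 89.7 in IVF-conceived mice, a difference of -2.06 (adjusted p = 0.472 in limma) and of -1.58 scaled (adjusted p = 0.261). Pck1, the entry enzyme of gluconeogenesis, had 95.2, 174.0 and 180.0 in NC-chow and 1.45 to 84.6 in IVF-conceived mice, and Slc2a2, the glucose transporter GLUT2, had 7.85, 23.4 and 20.8 against 1.37 to 7.83. Both were separated as deposited and not after scaling. Neither passed in limma (adjusted p = 0.596 and 0.357 as deposited). The gluconeogenesis and glycogen list had 20 of 21 negative differences and 19 after scaling, with medians of -0.92 and -0.5. Glycolysis and sugar uptake had medians of -0.62 and -0.18 over 22 genes. Pklr, the liver pyruvate kinase, was at 7.67, 75.6 and 84.9 in NC-chow and from 2.29 to 80.5 in IVF-conceived mice. Its difference of -1.49 turned to 0.66 with a sheet number term, which leaves NC-chow mouse 1 as the only control. Insulin signalling genes lay near the whole table, with medians of -0.27 and -0.01 over 17 genes. In the urea cycle, 10 of 11 genes were negative on each scale.

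Tymp, the thymidine phosphorylase, lies on chromosome 15 from 89371931 to 89377039 and had an FPKM of 5.34, 24.6 and 42.7 in NC-chow. It was at 0.305, 4.13 and 0.975 in IVF-chow, and in FET-chow it was listed at 0 throughout. The difference was -3.64 (SE 0.61, adjusted p = 0.00528 in limma) and -3.28 scaled (SE 0.56, adjusted p = 0.166), and -2.04 against NC-chow mouse 1. Tymp shares 1916 bases with Sco2 on the same strand, and the summed FPKM of both genes overlapped between the arms, 8.9 being the lowest NC-chow sum and 24.9 the highest IVF-conceived sum. Chrna4, a subunit of the neuronal nicotinic receptor, was at 0.487, 46.5 and 33.0 in NC-chow and listed at 0 in all 6 IVF-conceived mice. Its difference of -3.74 (SE 0.69, adjusted p = 0.0131 in limma; adjusted p = 0.261 scaled) rested on NC-chow mice 5 and 6, since it was -0.57 against NC-chow mouse 1 alone. With 1 mouse left out in turn, Tymp passed in 5 of 9 fits and Chrna4 in 3 of 9.

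Sema4g, a membrane semaphorin, had 12.3, 58.8 and 54.7 in NC-chow and 2.23 to 10.5 in IVF-conceived mice, and Spns2, the exporter of sphingosine 1-phosphate, had 2.62, 7.22 and 5.69 against 0.0 to 1.34. Their differences were -2.56 (adjusted p = 0.227 in limma) and -2.07 (adjusted p = 0.098), and -2.08 and -1.74 after scaling. Slc25a51, Faah and Mst1 were picked after their values were seen, as were Per3, Cipc, Nr1d1, Nr1d2, Per2, Noct and Abcb11 above and Gm42418 below. Slc25a51, the mitochondrial NAD carrier, was at 5.13, 7.99 and 6.94 in NC-chow and 0.376 to 4.26 in IVF-conceived mice. Faah, which breaks down endocannabinoids, was at 5.25, 7.86 and 10.1 against 1.23 to 4.22. Mst1, a plasma protein made by hepatocytes, was at 46.9, 68.4 and 67.4 against 8.07 to 46.8, so that the nearest mice all but touched. Ndufa6, a subunit of respiratory complex I, was at 31.5, 42.5 and 41.8 against 4.37 to 30.8. Among 75 nuclear genes of oxidative phosphorylation it was the 1 separated below on both scales. That share of 1.33% is close to the 1.17% of all genes. Irf1, an interferon regulatory factor, was at 3.5, 4.14 and 5.24 against 0.143 to 3.03.

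**Figure D4:**
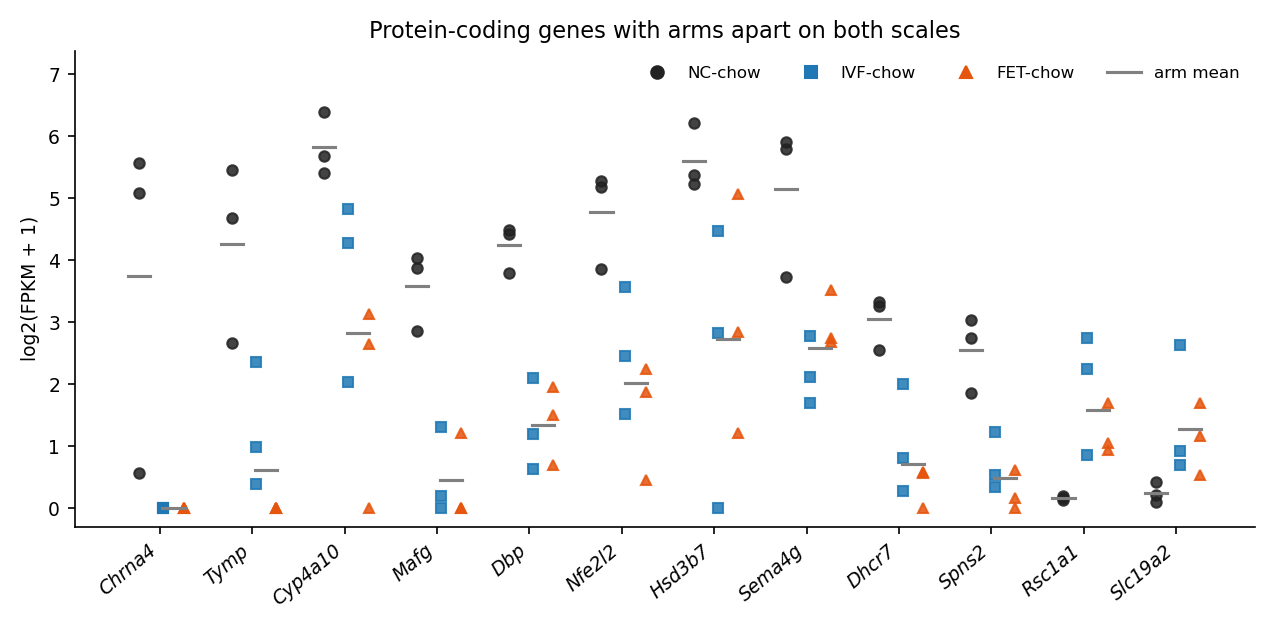
Points are single mice in log2(FPKM + 1) as deposited (circles NC-chow, squares IVF-chow, triangles FET-chow) and grey lines are arm means, for the 10 protein-coding genes with the largest difference among those separated below on both scales and the 2 separated above. The NC-chow circles lie above every other symbol from Chrna4 to Spns2 and below them for Rsc1a1 and Slc19a2.

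The other 3 genes past the threshold in limma were not protein-coding. Hectd2os, antisense to Hectd2, had 64.6, 9.51 and 7.56 in NC-chow, 4.81 in IVF-chow mouse 2 and was listed at 0 in the other 5 mice (difference -3.75, SE 0.64, adjusted p = 0.00528 in limma, and -3.18, adjusted p = 0.357, scaled), and it was not separated after scaling. Gm27505, a short RNA inside Neat1, had 4.64, 26.3 and 46.7 in NC-chow and 13.6 in IVF-chow mouse 4, so the arms overlapped (difference -3.56, adjusted p = 0.0442 in limma, and -3.25, adjusted p = 0.247, scaled). The pseudogene Gm7329 had 2.41, 8.96 and 11 in NC-chow and 0.0 to 1.73 in IVF-conceived mice (difference -2.47, adjusted p = 0.0442 in limma, and -2.11, adjusted p = 0.171, scaled). It was separated on both scales. With 1 mouse left out in turn, Hectd2os passed in 6 of 9 fits, Gm27505 in 2 of 9 and Gm7329 in 2 of 9.

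Of the 13 genes separated above NC-chow on both scales, 2 were protein-coding (15.4%) and the others were pseudogenes, lincRNAs, antisense transcripts and loci still to be experimentally supported. In 12 of them the NC-chow mean was under an FPKM of 1, and 4 were listed at 0 in at least 1 NC-chow mouse. Rsc1a1 was at 0.12, 0.146 and 0.0989 in NC-chow and 0.805 to 5.67 in IVF-conceived mice (difference 1.42, SE 0.5, adjusted p = 0.361 in limma; 1.62 scaled, adjusted p = 0.425). All 1749 bases of Rsc1a1 lie inside Ddi2 on the same strand, and Ddi2 was at 5.85, 9.04 and 9.23 in NC-chow and 0.0 to 11.8 in IVF-conceived mice. Summed over both entries the arms overlapped, at 5.97 to 9.32 and at 1.05 to 12.6. Slc19a2, a thiamine transporter, was at 0.0646, 0.162 and 0.344 in NC-chow and 0.448 to 5.17 in IVF-conceived mice (difference 1.02, SE 0.51, adjusted p = 0.589 in limma; 1.07 scaled, adjusted p = 0.357). Gm42418, the 1 member of the 13 with a mean FPKM above 10, was at 9.71, 23.6 and 23.1 in NC-chow, at 33.8, 33.5 and 60.2 in IVF-chow and at 31.6, 657.0 and 183.0 in FET-chow. It lies on chromosome 17 from 39846958 to 39848788 inside the ribosomal RNA entry CT010467.1 on the opposite strand, whose own FPKM was 4040 to 41000 in NC-chow and 19700 to 90700 in IVF-conceived mice.

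The gene lists showed which groups lay furthest from the whole table. Cytochrome P450 genes of families 1 to 4 were negative in 38 of 38 as deposited and in 32 after scaling, with medians of -1.14 and -0.65. Of these, Cyp4a10 alone was separated on both scales (2.63%, beside 1.17% of all genes). Periportal genes had medians of -1.03 and -0.56 over 16 genes and pericentral genes of -0.84 and -0.37 over 13, both below the whole table. The 13 proteins of the mitochondrial genome had medians of -0.99 and -0.5, and their summed FPKM was 279000 to 470000 in NC-chow and 60600 to 362000 in IVF-conceived mice. Within them, mt-Atp6 was at 8200, 48200 and 44000 in NC-chow and 1400 to 8980 in the IVF-conceived mice, so NC-chow mouse 1 lay inside the IVF-conceived range.

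Ribosomal protein genes went the other way relative to the table. Their median was -0.05 as deposited, with 46 of 77 negative, and 0.39 after scaling, with 70 of 77 positive and 9 separated above NC-chow on the scaled values, as were 2.21% of all genes. The direction of this family thus depended on the scaling. Rpl41 was at 12.8, 12.5 and 17.3 in NC-chow and 6.69 to 112.0 in IVF-conceived mice (difference 1.4, adjusted p = 0.66 in limma; 1.84 scaled, adjusted p = 0.357). The list of small nuclear RNAs, nucleolar RNA hosts, 7SK and 7SL was positive on both scales, with medians of 0.55 and 0.9 over 14 genes. Markers of stellate cells and fibroblasts had medians of 0.19 and 0.46 over 11 genes, with summed FPKM of 34.7 to 53.7 in NC-chow and 16.3 to 96.3 in IVF-conceived mice. Markers of Kupffer cells had -0.14 and 0.13 over 11, and of endothelial cells -0.52 and -0.16 over 10. Red blood cell markers had -1.02 and -0.59 over 6, all negative on both scales, with summed FPKM of 345.0 to 852.0 in NC-chow and 78.7 to 592.0 in IVF-conceived mice. Bile duct markers had -0.75 and -0.51 over 6, with sums of 97.2 to 182.0 and 31.7 to 224.0. In whole liver, fewer cells of a type and less RNA per cell cannot be told apart. Apoa5 and Apom, apolipoproteins, had higher means in the IVF-conceived mice (159.0 ± 155.0, SD, n = 6, against 33.9 ± 33.1, SD, n = 3, and 8.83 ± 7.61 against 2.4 ± 1.69), with overlapping values and adjusted p = 0.574 and 0.549 in limma. Socs2, a feedback inhibitor of growth hormone signalling, had 11.9 and 17.7 in IVF-chow mice 3 and 4 and at most 0.882 in the other 7 mice.

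**Figure D5:**
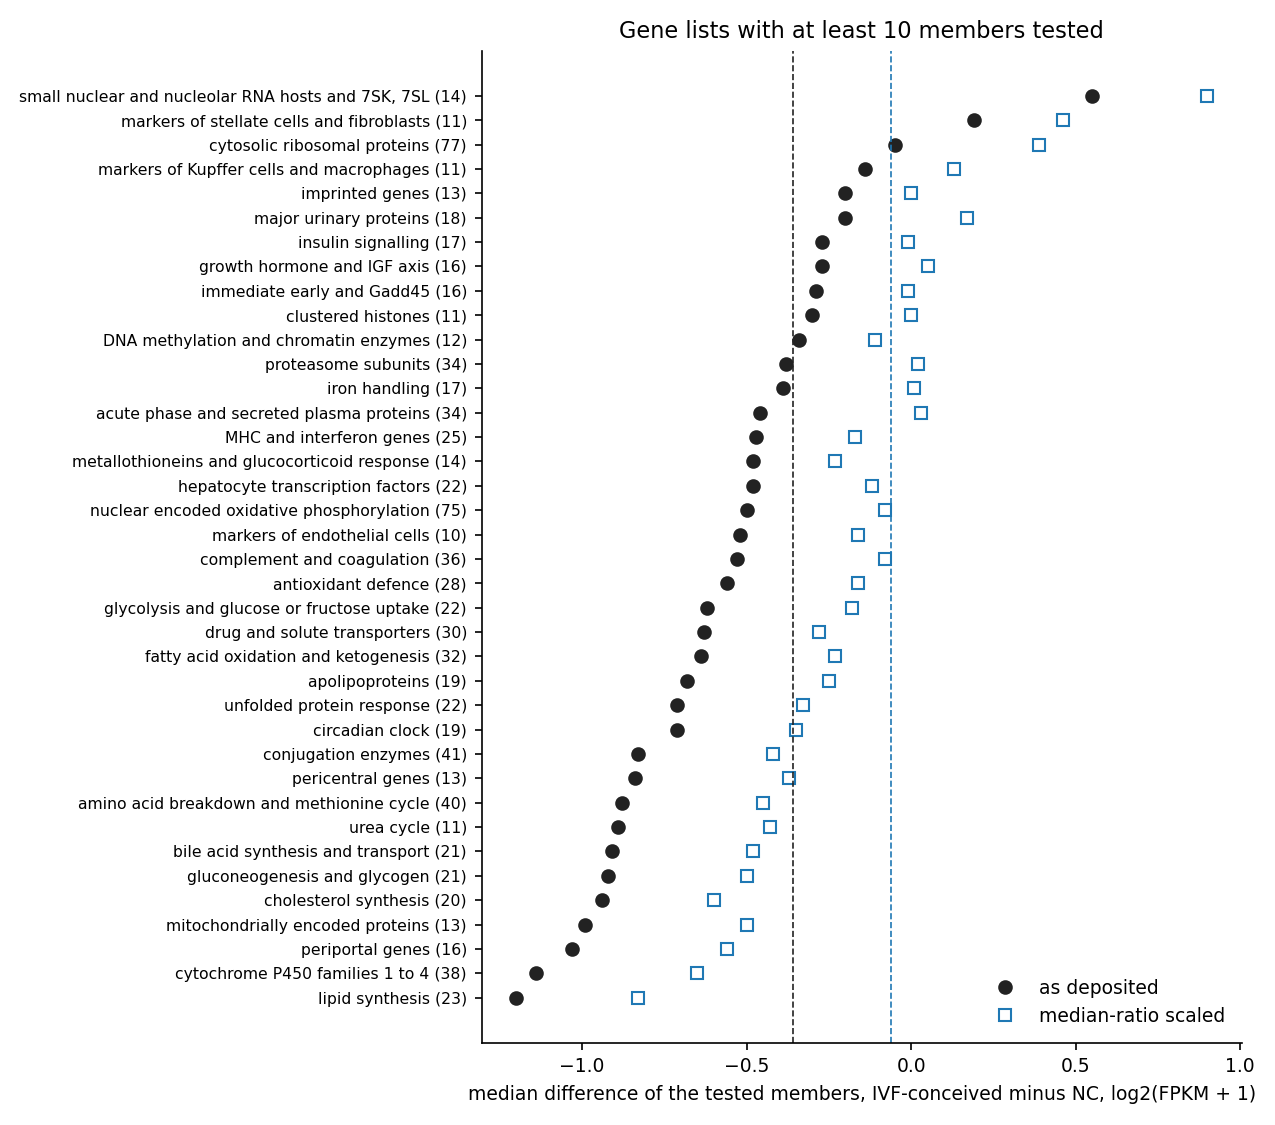
Each line is a gene list with the number of its tested members in brackets, and the points are the median difference IVF-conceived minus NC in log2(FPKM + 1), as deposited (black circles) and median-ratio scaled (blue squares), with dashed lines at the medians of all tested genes (-0.36 and -0.06). Among these lists, which have at least 10 members tested, lipid synthesis is lowest at -1.2 and -0.83, and the small nuclear RNA list highest at 0.55 and 0.9.

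The 6 mice of the pooled arm came from 2 groups that share the same NC-chow controls, so the values of each against NC-chow are given side by side and not as separate evidence. For Mafg they were -3.09 in IVF-chow and -3.18 in FET-chow, for Dbp -2.94 and -2.86, for Per3 -1.54 and -1.42, for Tat -2.03 and -2.08 and for Ndufa6 -1.59 and -1.68. Wider gaps between the groups occurred in both directions, for Cyp4a10 (-2.11 and -3.9), Tymp (-3.02 and -4.26) and Abcb11 (-2.5 and -1.2). Tested directly in a model with 3 groups, FET-chow minus IVF-chow was -1.79 for Cyp4a10, -1.24 for Tymp and 1.31 for Abcb11, each with an adjusted p of 1.0 in limma. With 3 mice in each group, such a p does not show that the groups were alike.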

How the data were processed

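Liver RNA of 9 mice was analysed. The authors deposited FPKM per gene, without counts. The submitters' processing notes name FastQC 0.11.5, STAR 2.5.3a, StringTie 1.3.1c and DESeq2 1.16.1. Build, annotation and strandedness are not given in the sources used here. Symbols and positions came from GENCODE vM21 (GRCm38), matched for 55154 of 55335 identifiers. FPKM depends on library composition, hence both scales.

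limma 3.58.1 in R 4.3.3 (variance moderated with a trend on the mean, two-sided, Benjamini-Hochberg over 6755 genes) was run on log2(FPKM + 1). On simulated data of this pooled comparison, 0.25% of 200 genes changed by 1.5 on the log2 scale were recovered. Of those changed by 3, 80.2% were recovered, with 4.5% false calls. Whether these shares hold for the deposited FPKM, where the libraries differed in composition, was not tested. Library values were compared with exact permutation tests over 84 arrangements (Python 3.11.15, scipy 1.17.1). Depth estimates used steps of up to 8 fragments within 2% and cover counting error only.

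Genes were named by a rule: called genes, the 10 separated protein-coding genes with the largest difference in each direction, and 2 members per list. Of the genes so considered, 2 are not reported here. Members and lists were chosen with earlier results of these data known. Alternatives were another pseudocount (0.1), other filters (none, 10), quantile normalization, rescaling to nuclear protein-coding genes, 1 model with 3 groups, a replicate block, a sheet number term and leaving out each mouse. The labels do not say whether mice shared a litter, so p-values measure the spread between these mice.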

Additional observations from a re-analysis of the deposited data

Results flagged for a closer look

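In a search of 57 groups of 6 IVF-conceived mice, 1 mouse stood far from the other 5 in 5 groups, and chance alone gives about 1 in 20. Hectd2os was at an FPKM of 4.81 in IVF-chow mouse 2 and listed at 0 in the others. Gm27505 was at 13.6 in IVF-chow mouse 4 against at most 0.351. Pck1 was at 1.45 in FET-chow mouse 2, against 39.9 to 84.6 in the other 5. The gene mt-Atp6 was at 1400 in IVF-chow mouse 2, the library with 61.9% of its FPKM in 3 non-coding entries. Nuclear protein-coding genes took 29.3% of the summed FPKM in IVF-chow mouse 4 and 4.36% to 13.7% in the others. The part of these library values in the gene values was not tested.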

How the results depend on the processing

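The 7 genes called were all among 12 in the 3-group model and 9 with the replicate block. A sheet number term leaves NC-chow mouse 1 as the only control, so its calls are not given on either scale. That fit is among the 17 alternatives counted for Mafg, Dbp and Dhcr7. At a mean FPKM of 10, 1 of the 7 was tested and none was among the 5 called. No gene was called (limma) after median-ratio scaling, quantile normalization, rescaling to protein-coding genes, without a filter or with a pseudocount of 0.1, with 696, 817, 673, 2562 and 441 genes at an unadjusted p under 0.05. Leaving out 1 mouse gave 0 (FET-chow 3) to 53 calls (NC-chow 1), with 1 without FET-chow 4 or NC-chow 6, 3 without IVF-chow 2 or NC-chow 5 and 4 without FET-chow 2 or IVF-chow 4. Chosen after the data were seen, scaled fits gave 0 calls with the replicate block, 8 with the sheet term and 0 to 56 without 1 mouse (56 without NC-chow 1). Same-numbered mice did not deviate together (mean correlation -0.12, others 0.061), so the numbers were not taken as pairs. As deposited, genes separated below numbered 19 at a mean of 10, 676 without a filter, 283 rescaled and 189 to 1168 without 1 mouse. Genes separated above numbered 149 scaled, 182 quantile normalized, 113 rescaled, 32 without a filter, 1 at a mean of 10 and 14 to 82 without 1 mouse. On both scales, the 79 below were 11 at a mean of 10 and 93 to 582 without 1 mouse (582 without NC-chow 1, 273 without IVF-chow 4, 128 without IVF-chow 2), and 70 and 71 of them stayed below when quantile normalized or rescaled. The 13 above were 1 at a mean of 10 and 13 to 79 without 1 mouse (79 without NC-chow 1, 54 without IVF-chow 2, 22 without FET-chow 4, 20 without NC-chow 6). A comparison with fewer mice separates more genes by construction. Leaving out NC-chow 5 or NC-chow 6, also 1 control each, gave 101 and 93 below on both scales. The cause of the higher number without NC-chow 1 was not tested. The median difference of -0.36 was -0.06 scaled or with the sheet term, -0.07 rescaled, -0.01 quantile normalized and -0.03 without a filter. It was -0.61 with a pseudocount of 0.1, -0.42 at a mean of 10 and -0.52 to -0.2 without 1 mouse. Pklr (0.66) and Elovl6 (0.07) turned positive with the sheet term, and the cause was not tested. The exact p for depth ranged from 0.0357 to 0.143 without 1 mouse. It was 0.0714 to 0.214 for both composition shares.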
